A study of Danio rerio with 24 samples.

Results

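The heat shock protein genes described here are 10 zebrafish genes for chaperones, the proteins that help other proteins to fold: *hsp70l*, *dnajb1b*, *hspb1*, *hspa8*, *hsp90aa1.1*, *hsp90ab1*, *hspa5*, *hsp90b1*, *hspa9*, and *hspd1*. They were chosen by name, as the genes to which the transcript accessions on the array belong. They are 10 of the 10536 named genes on the array, and 22 of its 43603 probes measure them. Zebrafish of the AB line were exposed from 48 hpf (hours post fertilization) to 0.3 μM mebendazole (MBZ) or to 0.3 μM BBC. The exposure lasted 12, 24, or 36 h, to 60, 72, or 84 hpf. The eyes were dissected and pooled, and their RNA was measured on 24 single-colour arrays, 4 in each of 6 conditions.

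MBZ is a benzimidazole that binds tubulin and blocks the assembly of microtubules. BBC is the same benzimidazole with a butyl ester on its benzoyl ring. The study set MBZ against BBC as a related compound without its toxicity to the retina, and no group was free of a benzimidazole. Each array is a pool of eyes, and nothing in the labels says that the 4 pools of a condition came from separate clutches. The p values thus measure the spread between pools. In whole eyes, fewer cells of a type and less RNA per cell cannot be told apart.

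Chaperones of the HSP70 family hold unfolded stretches of a protein and release them on ATP hydrolysis, which J-domain proteins stimulate. HSP90 proteins act later on kinases, receptors and myosin, and small heat shock proteins keep unfolded proteins from aggregating without using ATP. Damaged cytosolic proteins release heat shock factor to induce *hsp70l*, *dnajb1b*, and *hspb1*, whereas unfolded proteins in the endoplasmic reticulum (ER) induce *hspa5* and *hsp90b1*. In the eye, small heat shock proteins related to *hspb1* are the alpha crystallins of the lens, and *hsp70l* is also known for expression in the developing zebrafish lens without heat.

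All values are log2 signals over the 75th percentile of their own array, so that 1 unit is a 2-fold difference. All 22 probes were well above background on all 24 arrays, and none was flagged as saturated. Over the arrays, 66.5% to 76.7% of the probes were well above background, and the 75th percentile of the signal lay between 437 and 1433. Of the tested marker genes, 16 of 17 photoreceptor genes and 13 of 13 lens fibre genes were well above background on all arrays. So were 20 of 20 skeletal muscle genes, 6 of 7 red blood cell genes, and 6 of 9 macrophage and microglia genes. The filter for testing used the same flag, and 22 of the listed skeletal muscle genes were on the array. This flag thus cannot tell eye from other tissue. On each of 6 slides, MBZ and BBC arrays lay at fixed positions, so that compound and position cannot be told apart. Each exposure time had a scan day of its own, so that exposure time, age and scan day cannot be told apart.

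No heat shock protein gene was called different between MBZ and BBC at any exposure time. With a single limma fit over all arrays and Benjamini-Hochberg adjustment over 31507 tested probes, 0 of 10 genes and 0 of 22 probes had an adjusted p under 0.20 at 12, 24, and 36 h. The lowest adjusted p among the 22 probes was 0.878 at 12 h, 1 at 24 h, and 0.516 at 36 h. Of all tested probes, 0.321% were called at 12 h, 0.321% at 24 h, and 5.62% at 36 h. Of 9739 named genes, each taken by its brightest probe, 0.318%, 0.483%, and 6.33% were called at 12, 24, and 36 h. With so low a background, 0 calls among 10 genes do not set these genes apart from the others.

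**Figure D1:**
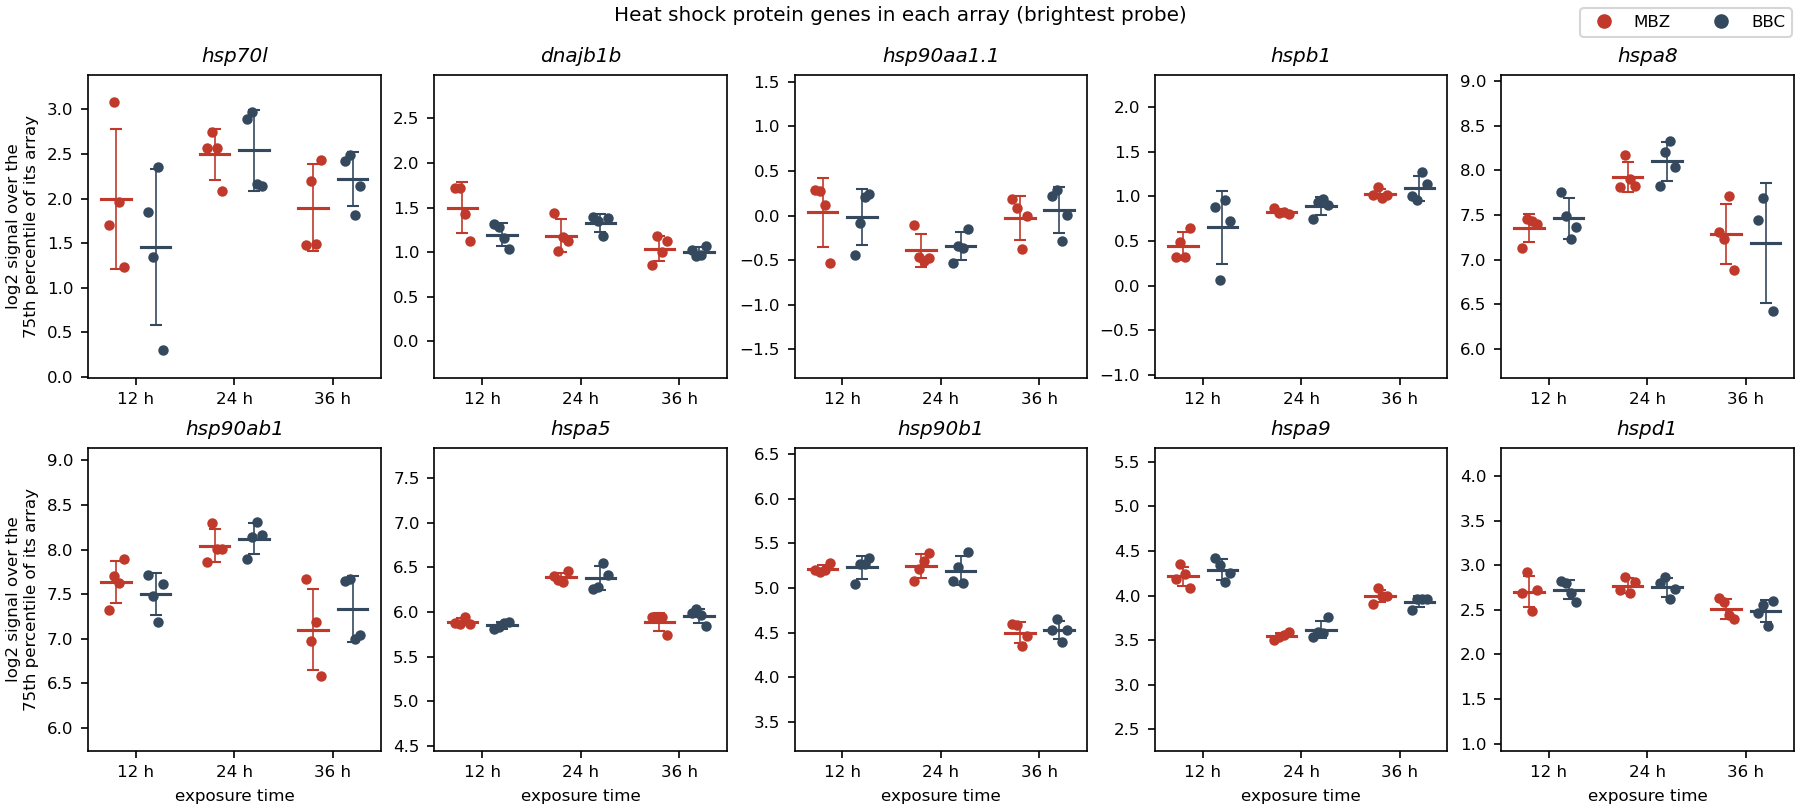
Log2 signal over the 75th percentile of its own array (y axis) for the 10 heat shock protein genes, each by its brightest probe, in MBZ (red) and BBC (blue) eyes at each exposure time (x axis). Points are arrays, horizontal lines are means and bars are SD (n = 4, but n = 3 for *hspa8* in BBC eyes at 36 h). All panels span the same height of the log2 scale, and the MBZ and BBC arrays overlap in every panel and at every exposure time.

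Among the stress-inducible genes, *hsp70l*, the HSP70 that heat induces in zebrafish, varied most between pools. Its single probe, A_15_P105258, read 1.70, 3.08, 1.96, and 1.23 in MBZ eyes at 12 h, against 1.85, 1.34, 2.35, and 0.30 in BBC eyes. An MBZ pool was the highest and a BBC pool the lowest of all 24 arrays, but the other pools of both compounds overlapped. At 24 h, MBZ eyes read 2.57, 2.75, 2.57, and 2.09, and BBC eyes 2.89, 2.97, 2.16, and 2.14. At 36 h, MBZ eyes read 1.48, 2.20, 1.49, and 2.43, and BBC eyes 2.42, 2.49, 1.82, and 2.14. The pools of both compounds overlapped at these times as well. The log2 fold change of *hsp70l* was 0.53 ± 0.38 (SE) at 12 h, -0.04 ± 0.38 at 24 h, and -0.32 ± 0.38 at 36 h, with limma adjusted p = 1, 1, and 0.793. The 95% interval at 12 h ran from 0.831-fold to 2.52-fold, so that a doubling could not have been told from no change for this gene. The SE pools the spread of all 6 conditions, but the SD at 12 h was 0.79 in MBZ and 0.88 in BBC eyes. At the later times the SD lay between 0.29 and 0.49. The interval at 12 h is thus likely too narrow, and the exact permutation p at 12 h was 0.429. Single pools set the value at 12 h: it was 0.17 without MBZ replicate 2 and 0.15 without BBC replicate 4, but 0.79 without MBZ replicate 4 and 0.83 without BBC replicate 3, with a limma adjusted p above 0.95 each time.

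The SD of *hsp70l* within a condition, 0.58, was larger than that of 93.9% of the tested probes, whose median was 0.20. Across the 24 arrays, after the mean of each condition was removed, *hsp70l* went with *dnajb1b* (Pearson r = 0.52, permutation p = 0.0397; Spearman rho = 0.53, permutation p = 0.0276). Over the 9 other genes compared with *hsp70l*, the adjusted permutation p of this pair was 0.225 for r and 0.17 for rho, and no pair passed 0.05. Without the 2 arrays farthest from the median of *hsp70l*, r was 0.39, and within slides it was 0.42. With *hspa5* the relation ran the other way (r = -0.37, permutation p = 0.0499; rho = -0.45, permutation p = 0.0378), with the same adjusted permutation p of 0.225 and 0.17. Without the 2 arrays farthest from the median its r was -0.39, and within slides -0.30. The r of *hsp70l* with the other 7 genes lay between -0.24 (*hsp90ab1*) and 0.42 (*hspd1*). That of *hspd1* was larger in size than that of *hspa5*, with a permutation p of 0.112.

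*dnajb1b*, a J-domain partner of cytosolic HSP70 that heat also induces, read 1.72, 1.72, 1.43, and 1.13 in MBZ eyes at 12 h, and 1.31, 1.28, 1.16, and 1.03 in BBC eyes. Of the MBZ pools, 3 were above all BBC pools and 1 was not. The log2 fold change was 0.31 ± 0.12 (SE), with p = 0.0171 before adjustment and 0.878 after it in limma, and a two-sided exact permutation p of 0.143, where the smallest possible p is 0.0286. With pools of the same number as a block, its SE at 12 h was 0.09, with a limma p of 0.00544 before adjustment and 0.411 after it. The pairs at 12 h were all higher in MBZ eyes, by 0.42, 0.44, 0.27, and 0.1 (exact paired permutation p = 0.125). At 24 h the gene read 1.44, 1.01, 1.17, and 1.12 in MBZ eyes, and 1.39, 1.35, 1.18, and 1.38 in BBC eyes. At 36 h it read 0.86, 1.18, 1.0, and 1.12 in MBZ eyes, and 1.02, 0.96, 0.97, and 1.07 in BBC eyes. Its log2 fold changes at these times were -0.14 and 0.04, with overlap at both.

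*hspb1*, a small heat shock protein that binds unfolded proteins and actin filaments, read 0.32, 0.49, 0.32, and 0.65 in MBZ eyes at 12 h, and 0.88, 0.06, 0.96, and 0.72 in BBC eyes. All MBZ pools were below 3 of the BBC pools and above the fourth, BBC replicate 2 at 0.06. The log2 fold change was -0.21 ± 0.14 (SE; limma adjusted p = 1), with an exact permutation p of 0.4. The SE pools the spread of all 6 conditions, but the SD at 12 h was 0.16 in MBZ and 0.41 in BBC eyes. At the later times the SD lay between 0.03 and 0.14. Without BBC replicate 2 the log2 fold change at 12 h was -0.41 with a limma adjusted p of 0.152, which is past the threshold. At 24 h, the range of *hspb1* was 0.80 to 0.87 in MBZ eyes and 0.75 to 0.97 in BBC eyes. At 36 h it lay between 0.98 and 1.1 in MBZ eyes and between 0.96 and 1.27 in BBC eyes. The log2 fold changes at these times were -0.07 and -0.06.

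*hsp90aa1.1*, the HSP90 that zebrafish skeletal muscle needs for folding myosin, had 2 probes. The brighter, A_15_P102590, read 0.29, 0.27, 0.12, and -0.53 in MBZ eyes at 12 h, against -0.44, -0.08, 0.21, and 0.24 in BBC eyes. The other, A_15_P131436, read -2.05, -2.47, -2.46, and -2.43 in MBZ eyes, against -2.88, -2.65, -2.35, and -2.52 in BBC eyes. The compounds overlapped in both. The log2 fold changes at 12, 24, and 36 h were 0.05, -0.05, and -0.09 for the brighter probe, and 0.25, -0.29, and -0.05 for the other. At 12 h, all 20 tested skeletal muscle marker genes had a log2 fold change above 0, with a median of 0.73, but none was called in limma (lowest adjusted p 0.861). Their summed relative signal overlapped, between 31.6 and 66.0 in MBZ eyes and between 15.3 and 40.7 in BBC eyes. The part of muscle in the values of *hsp90aa1.1* was not tested. The array also holds *hsp90aa1.2*, a close relative of this gene, and whether the probes tell the pair apart was not checked here.

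*hspa8* and *hsp90ab1* are the HSP70 and HSP90 that cells make without stress. The brightest *hspa8* probe, A_15_P164296, read 7.31, 7.23, 7.71, and 6.89 in MBZ eyes at 36 h, against 7.45, 7.69, and 6.42 in the 3 BBC pools with an even spot. The MBZ pools lay within the range of the BBC pools except replicate 3. The log2 fold changes of this probe were -0.11, -0.18, and 0.10 at 12, 24, and 36 h. Those of the other 2 *hspa8* probes were -0.21 and -0.15 at 12 h, and between -0.07 and 0.08 at the later times. Of these, A_15_P216681 at 12 h had an unadjusted limma p of 0.0440, an adjusted p of 0.988 and an exact permutation p of 0.0857.

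The brightest *hsp90ab1* probe, A_15_P160646, read lower where the 75th percentile was higher. At 12 h, the MBZ arrays had percentiles of 914, 968, 1033, and 1433, and it read 7.90, 7.70, 7.63, and 7.32. The BBC arrays had 1028, 1053, 1175, and 1277, and it read 7.72, 7.62, 7.48, and 7.19. The brightest *hspa8* probe did likewise in BBC eyes at 24 h, where percentiles of 490, 519, 565, and 705 went with 8.33, 8.21, 8.04, and 7.83. At 36 h, BBC percentiles of 983, 1040, and 1414 went with 7.69, 7.45, and 6.42. In MBZ eyes at 36 h the order was not kept, with 880, 1031, 1048, and 1384 beside 7.31, 7.71, 7.23, and 6.89. Whether the values of these probes follow the genes or the scaling was not tested. The 4 probes of *hsp90ab1* had log2 fold changes between -0.16 and 0.14 at 12 h, between -0.29 and -0.08 at 24 h, and between -0.24 and -0.04 at 36 h. At 24 h all 4 were below 0. The largest difference of these was in A_15_P119924, which read 4.40, 4.21, 4.02, and 4.27 in MBZ eyes at 24 h, against 4.73, 4.54, 4.39, and 4.39 in BBC eyes. The MBZ pools were lower on the whole, with an overlap of 1 pool, and the limma adjusted p was 1 (exact permutation p = 0.0857). MBZ and BBC pools of the same number shared a slide at every exposure time, but each slide also held pools of another number. The labels do not say what the number stands for. Pairs are shown at 24 h because their deviations went together (correlation 0.16 to 0.44), a choice made from these same data. Within pairs this probe differed by -0.33, -0.34, -0.37, and -0.11, all in 1 direction, and with the pairs as a block the log2 fold change was -0.29 ± 0.08 (SE; limma p = 0.00583 before adjustment and 0.359 after it; exact paired permutation p = 0.125, the smallest that 4 pairs allow). Of the 22 probes, 0 were called at 24 h with the pairs as a block, against 0.597% of all tested probes. All 4 pairs differed in 1 direction for 7 of the 22, 3 of them of *hsp90ab1*, against 20.9% of all tested probes. Pairs are also given, outside this rule, for *dnajb1b* at 12 h (correlation 0.03 to 0.13) and *hspd1* at 36 h (-0.02 to 0.37). At 12 h, all pairs differed in 1 direction for 4 of the 22 probes, against 17.5% of all tested probes. With the pairs as a block, 0 of the 22 were called at 12 h, against 0.505%.

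*hspa5*, the HSP70 of the ER and the usual marker of the unfolded protein response, had a probe that varied little between pools. This brighter probe, A_15_P130346, read 5.88, 5.87, 5.95, and 5.87 in MBZ eyes at 12 h, against 5.81, 5.83, 5.88, and 5.89 in BBC eyes. At 24 h, MBZ eyes read 6.40, 6.36, 6.34, and 6.46, and BBC eyes 6.26, 6.28, 6.55, and 6.42. At 36 h, MBZ eyes read 5.94, 5.94, 5.95, and 5.74, and BBC eyes 5.99, 6.03, 5.97, and 5.84. The pools of the compounds overlapped at each time. The SD within a condition was 0.08, and only 1.65% of the tested probes had a smaller one. The log2 fold changes were 0.04, 0.01, and -0.07 (SE 0.07 each), and the 95% intervals ran from 0.929-fold to 1.14-fold at 12 h, from 0.909-fold to 1.12-fold at 24 h, and from 0.862-fold to 1.06-fold at 36 h. The second probe of *hspa5*, A_15_P113494, had log2 fold changes of 0.01, 0.01, and 0.00, and its SD within a condition, 0.20, was that of the median tested probe.

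*hsp90b1*, the HSP90 of the ER, had log2 fold changes of -0.02, 0.05, and -0.03 by its brighter probe and of 0.01, -0.03, and 0.15 by the other. The last of these values rests on 3 MBZ and 3 BBC arrays, because an uneven spot was left out of each. Of the mitochondrial chaperones, the 4 probes of *hspa9*, the HSP70 that pulls proteins into the matrix, had log2 fold changes between -0.09 and 0.07 over all exposure times. Its brightest probe, A_15_P111664, had an SD within a condition of 0.08, smaller than all but 1.91% of the tested probes.

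*hspd1*, the HSP60 that folds proteins in the matrix, gave the one probe whose pools did not overlap. A_15_P118622 read -2.46, -2.26, -2.46, and -2.45 in MBZ eyes at 36 h, against -2.55, -2.51, -2.82, and -2.82 in BBC eyes. Every MBZ pool was higher than every BBC pool, with a gap of less than 0.1. The log2 fold change was 0.27 ± 0.16 (SE), with a limma adjusted p of 0.516 and an exact permutation p of 0.0286. With pools of the same number as a block, its SE was 0.11, with a limma p of 0.0272 before adjustment and 0.214 after it. All 4 pairs of this probe were higher in MBZ eyes. This follows from the lack of overlap by which the probe was singled out, as does the exact permutation p of 0.0286, and neither adds to it. At 36 h, all pairs differed in 1 direction for 4 of the 22 probes, against 21.5% of all tested probes. With the pairs as a block, 0 of the 22 were called at 36 h, against 11.8% of all tested probes. The brighter *hspd1* probe, A_15_P107421, had a value of 0.03 for the same comparison, with a 95% interval of -0.16 to 0.22, against -0.07 to 0.61 for the dimmer probe. The difference between the probes was not tested. Over all tested probes, the MBZ and BBC pools did not overlap for 4.15% at 12 h, 3% at 24 h, and 5.88% at 36 h, and among the 22 probes for 0, 0, and 1.

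**Figure D2:**
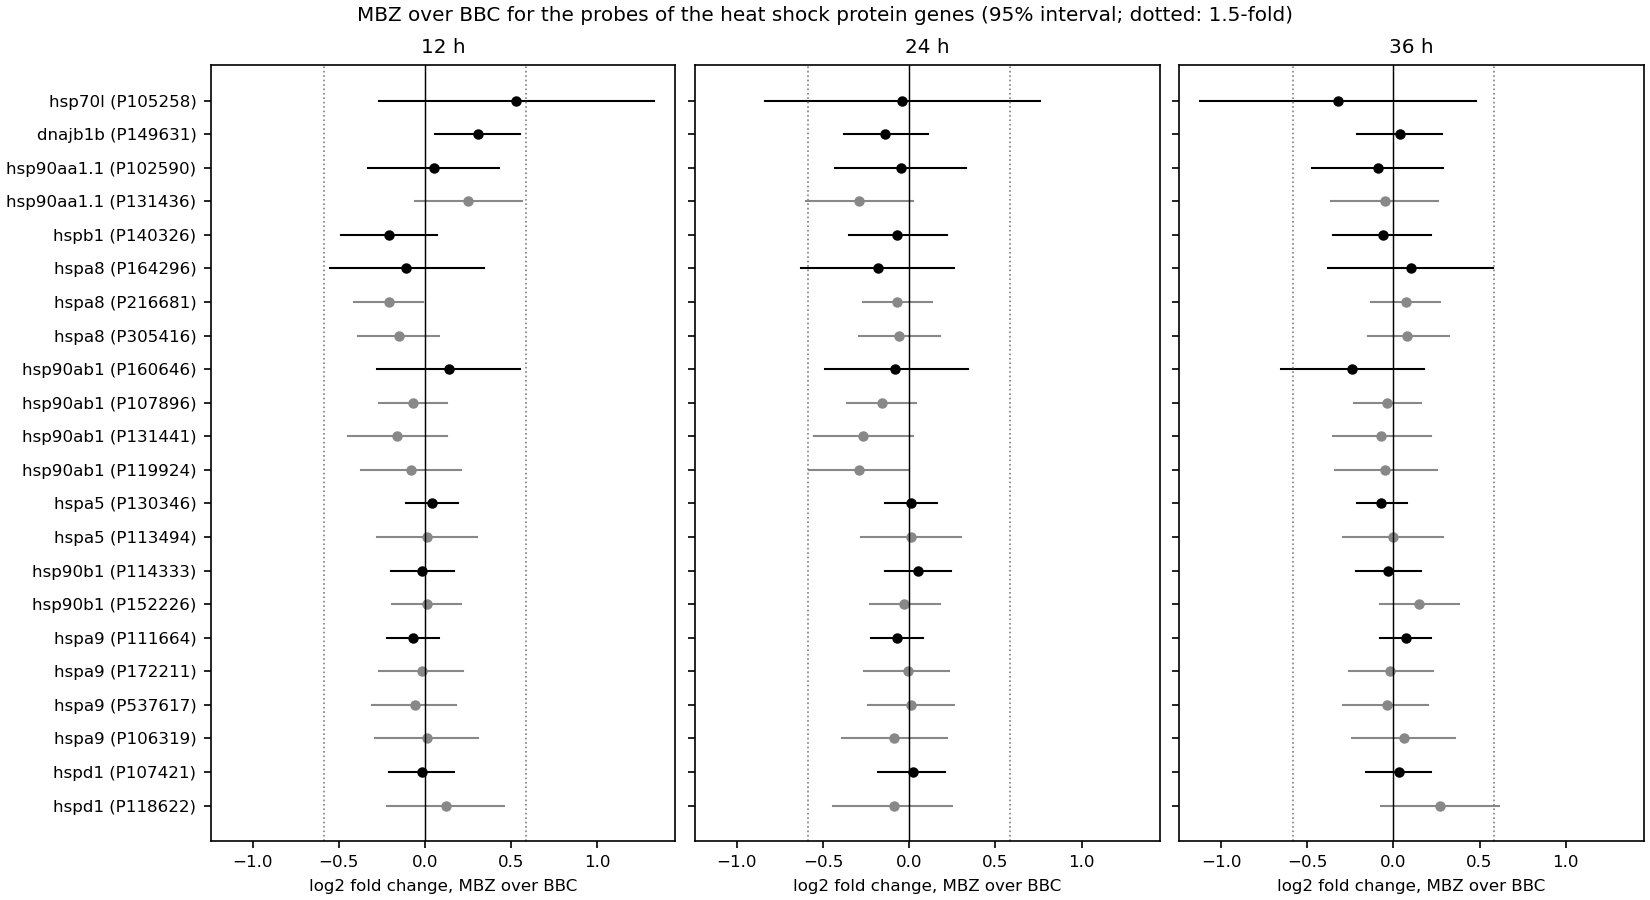
Log2 fold change of MBZ over BBC (x axis) with its 95% interval for the 22 probes of the 10 genes (y axis) at 12, 24, and 36 h. Black marks the brightest probe of a gene and grey the others; dotted lines mark 1.5-fold in both directions, and the intervals of *hsp70l* are the widest at each time.

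The size of difference that these arrays could show is given by the intervals, which pool the spread of a probe over the 6 conditions. The 95% interval lay within 1.5-fold in both directions for 21 of 22 probes at 12 h, and for 19 at 24 h and at 36 h. It lay within 2-fold for 21, 22, and 21 probes. The median SE of a log2 fold change was 0.13 for the 22 probes, against 0.14 for all tested probes. Before adjustment, 2, 0, and 0 of the 22 probes had p under 0.05 in limma at 12, 24, and 36 h, against 5.04%, 4.63%, and 13.3% of all tested probes. The median log2 fold change of the 10 genes was 0.01, -0.06, and -0.05, against 0.01, -0.01, and -0.01 for all tested probes. Of the 22 probes, 10, 5, and 9 were higher in MBZ eyes at 12, 24, and 36 h.

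The effect of MBZ did not differ detectably between exposure times for any of the 10 genes. For each pair of times, 0 of 22 probes had a limma adjusted p under 0.20 for the difference of the effects, against 0% of all tested probes for 24 h minus 12 h, 0.362% for 36 h minus 12 h, and 0.0635% for 36 h minus 24 h. Before adjustment, 2, 0, and 0 probes had p under 0.05, against 2.12%, 8.4%, and 5.55% of all tested probes. Those 2 probes were *dnajb1b*, whose effect at 24 h minus that at 12 h was -0.45 ± 0.17 (SE), and *hsp90aa1.1* A_15_P131436, at -0.54 ± 0.21. The largest difference was that of *hsp70l*, whose effect at 36 h minus that at 12 h was -0.85 ± 0.54 (limma adjusted p = 0.699).

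Between exposure times, and thus between ages, scan days and slides, more of the 22 probes were called than between the compounds, as was so for all tested probes. The p values of these steps measure the spread between arrays of the same scan day, not the spread between days. In BBC eyes at 24 h against 12 h, 10 probes were called higher and 7 lower, which is 17 of 22, against 82.9% of all tested probes. At 36 h against 24 h, 18 of 22 were called, 4 higher and 14 lower, against 71.1%. By brightest probe, *hsp70l*, *hspb1*, *hspa8*, *hsp90ab1*, and *hspa5* were higher and *hsp90aa1.1* and *hspa9* lower at 24 h. Of these, the pools of *hsp70l*, *hspb1*, and *hsp90aa1.1* overlapped between 12 h and 24 h (exact permutation p = 0.0857, 0.286, and 0.171). Before adjustment, the limma p was 0.1 for *hspb1* and 0.0875 for *hsp90aa1.1*, so that these calls are weak. At 36 h, *hsp90aa1.1* and *hspa9* were higher and *dnajb1b*, *hspa8*, *hsp90ab1*, *hspa5*, *hsp90b1*, and *hspd1* lower. Here the pools of *hsp90aa1.1* overlapped between 24 h and 36 h (exact permutation p = 0.0571). The calls of *hspa8* (0.64) and *hsp90ab1* (0.62) at 24 h were made with the main scaling alone: with quantile normalization, the authors' values, and normexp with quantile normalization, *hspa8* was 0.05, 0.07, and 0.12, and *hsp90ab1* 0.02, 0.05, and 0.00. At 36 h against 24 h, the call of *hsp90ab1* (-0.78) was likewise made with the main scaling alone. It was -0.07 with quantile normalization, 0.01 with the authors' values, and 0.03 with normexp and quantile normalization. *hspa5* (-0.42) was 0 with quantile normalization and 0.11 with the authors' values, but -0.38 with normexp and quantile normalization. Single arrays decided the calls of *hspb1* and *hsp90aa1.1* at 24 h. The value of *hspb1*, 0.23, was 0.04 without BBC replicate 2 at 12 h and was also lost as a call without BBC replicate 2 (0.22) or 3 (0.21) at 24 h, and that of *hsp90aa1.1*, -0.33, was not called without BBC replicate 3 (-0.25) or 4 (-0.24) at 12 h or BBC replicate 1 at 24 h (-0.27). At 36 h against 24 h, *hspb1* was 0.20 and not called, but it was called, at 0.20 to 0.25, when BBC replicate 1, 2, or 3 at 12 h, 3 at 24 h, or 1 or 2 at 36 h was left out. The members' share of calls was near that of all probes, and the direction depended on the scaling of the arrays. The median of all tested probes was 0.20 at 24 h against 12 h and -0.13 at 36 h against 24 h, but 0.77 and -0.68 when normexp background correction preceded the same scaling, and between 0 and 0.03 with 3 other scalings. Of all called probes, 59.3% were higher at 24 h against 12 h, and 48.7% to 71.6% with the other scalings, whereas at 36 h against 24 h the shares were 40.5% and 25.6% to 54.6%. At each step, 6 of 22 probes were called in the same direction under all 5 scalings, and only these are described next. The share of all tested probes that did so was not counted, so that this number does not set the 10 genes apart.

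*hspa9* accounted for many of these calls, and its probes moved in opposite directions. In BBC eyes at 12, 24, and 36 h, A_15_P172211 averaged 2.61 ± 0.05, 1.05 ± 0.18, and 2.11 ± 0.18 (SD, n = 4 each). A_15_P111664 averaged 4.29 ± 0.12, 3.62 ± 0.09, and 3.93 ± 0.06 in the same eyes. Both fell at 24 h, by 1.56 and 0.67 on the log2 scale, and rose at 36 h, by 1.07 and 0.31 (limma adjusted p between 2.85e-10 and 0.00103). A_15_P537617 averaged -0.78 ± 0.11, -0.55 ± 0.25, and -1.37 ± 0.10, which is a rise of 0.23 at 24 h (limma adjusted p = 0.0859) and a fall at 36 h. A_15_P106319 fell by 0.97 at 36 h, where it averaged -2.42 ± 0.15, against -1.44 ± 0.15 at 24 h. These 4 probes carry the same gene name, and no value for the gene as a whole can be given over time.

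*hsp90aa1.1* likewise had probes of opposite direction. A_15_P131436 averaged -2.60 ± 0.22, -1.65 ± 0.10, and -2.68 ± 0.28 in BBC eyes at 12, 24, and 36 h, a rise of 0.95 and a fall of 1.03 on the log2 scale (limma adjusted p = 9.55e-06 and 7.97e-06). A_15_P102590 averaged -0.02 ± 0.32, -0.34 ± 0.15, and 0.06 ± 0.25, and rose by 0.40 at 36 h (limma adjusted p = 0.0652). Of the other genes, *hsp90ab1* A_15_P107896 averaged 5.86 ± 0.12 at 24 h and 6.52 ± 0.07 at 12 h, a fall of 0.66 on the log2 scale, and *hsp90b1* A_15_P152226 averaged 3.10 ± 0.11 at 24 h and 3.79 ± 0.08 at 12 h, a fall of 0.69. In MBZ eyes the means of these probes followed the same course: *hspa9* A_15_P172211 averaged 2.58, 1.03, and 2.1 and *hsp90aa1.1* A_15_P131436 averaged -2.35, -1.94, and -2.73 at 12, 24, and 36 h. With the main scaling, probes of 1 gene were called in opposite directions in 3 of the 7 genes with several probes at each step, against 18.9% of 3414 such genes on the array at 24 h against 12 h and 14.5% at 36 h against 24 h. The 3414 genes were not matched on the number of probes. *hspa9* and *hsp90ab1* have 4 each, and more probes give more room for opposite calls.

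**Figure D3:**
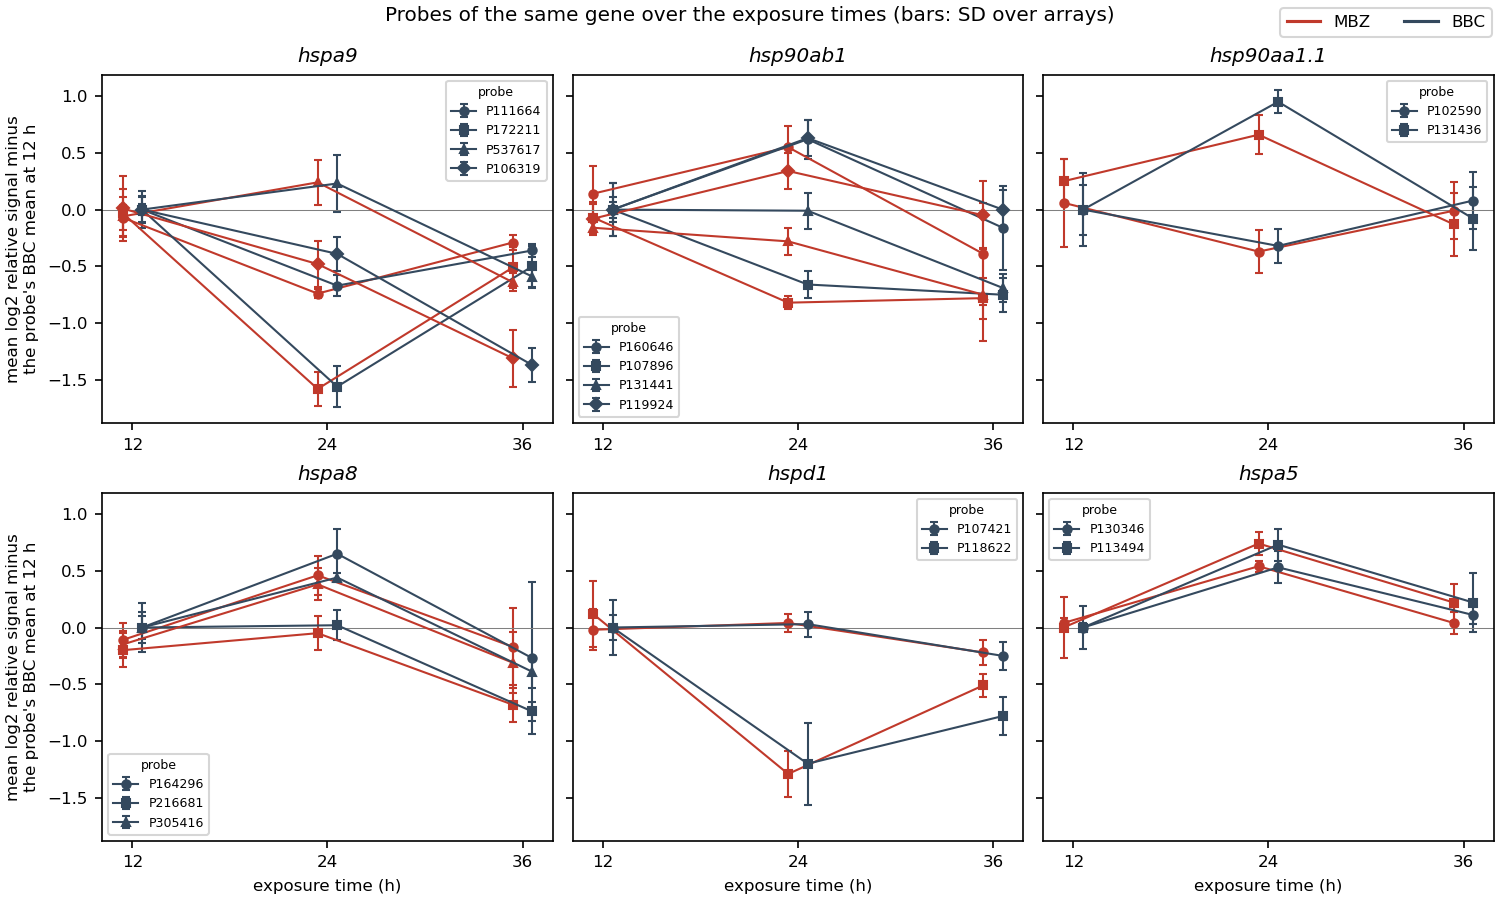
Mean log2 relative signal of each probe minus the mean of that probe in BBC eyes at 12 h (y axis) over the exposure times (x axis) for 6 genes with several probes, in MBZ (red) and BBC (blue) eyes. Bars are SD over arrays and symbols are probes; the probes of *hspa9* and of *hsp90aa1.1* separate from each other more than MBZ and BBC do, and A_15_P172211 of *hspa9* lies lowest at 24 h in both compounds.

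The chaperone network around the 10 genes was read from 6 lists with 122 tested genes: relatives of HSP70 and HSP90 with the heat shock factors, J-domain proteins, small heat shock proteins, ER chaperones with genes of the unfolded protein response, mitochondrial chaperones and proteases, and co-chaperones. Of these genes, 0 were called at 12 h and at 24 h, and at 36 h 3 were higher and 2 lower in MBZ eyes. These 5 of 122 genes stand beside 6.33% of all named genes at 36 h, so that the lists held no more calls than the background. Of 29 J-domain proteins, 1 was higher and 2 were lower (median log2 fold change 0.03), and of 8 small heat shock proteins 1 was higher. In the ER list, with the genes of the unfolded protein response, 1 of 37 genes was called at 36 h, and the median log2 fold change was 0.04, against 0.02 for all named genes. In the mitochondrial list 0 of 6 were called, and the median was 0.04. In the co-chaperone list 0 of 29 were called, and in the list of relatives 0 of 13, with medians of 0.04 and 0.00. Of the 25 genes on the list of relatives, only these 13 had a named probe on the array. The heat shock factors among them were *hsf2* and *hsf5*, and *hsf1* was not tested.

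*hspb15*, a small heat shock protein, had the lowest adjusted p of the 122 genes. It read -0.56, -1.24, -1.38, and -1.56 in MBZ eyes at 36 h, against -2.28, -1.99, -1.91, and -3.03 in BBC eyes. All MBZ pools were above all BBC pools. At 36 h, pools did not overlap for 5.88% of all tested probes, nor for *dnajb2*, described below. *hspb15* rose by 1.12 ± 0.27 (SE) on the log2 scale, with a limma adjusted p of 0.0525. Its exact permutation p was 0.0286, the smallest possible, and adds little because *hspb15* was picked by its adjusted p from the same values. Its effect was 0.15 at the 12 h exposure and 0.62 at the 24 h exposure on the same scale, with an adjusted p of 1 for both. The call was lost in a fit of only the 8 arrays of 36 h, where the log2 fold change was again 1.12 (adjusted p = 0.344), and with normexp correction before the 75th percentile, where it was 0.92 (adjusted p = 1). It was kept in all 24 fits that left out an array.

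The other 4 calls were of small size. *manf*, an ER protein that is secreted under ER stress, averaged 2.82 in MBZ pools at this time and 2.53 in BBC pools, and rose by 0.29 (limma adjusted p = 0.165). *dnajc18*, a J-domain protein, rose by 0.32 (adjusted p = 0.175), *dnajb2* fell by 0.36 (adjusted p = 0.168), and *dnajb6b*, which in human cells keeps polyglutamine proteins from aggregating, fell by 0.55 (adjusted p = 0.171), all in limma. With normexp correction, *manf* was 0.05 before either the 75th percentile or quantile normalization, and *dnajc18* was 0.17 before the 75th percentile and 0.13 before quantile normalization. With normexp and quantile normalization, *dnajb2* was -0.24, and over the mean of its probes *dnajb6b* was -0.35. The second probe of *dnajb6b* had a log2 fold change of -0.16 and an adjusted p of 0.637. These 4 calls depended on single arrays: the number of calls over the 122 genes was between 1 and 12 when an array was left out, with 1 call without BBC replicate 1, BBC replicate 2, or MBZ replicate 2, 2 without MBZ replicate 3, 3 without BBC replicate 4, 10 without BBC replicate 3, and 12 without MBZ replicate 4 at 36 h. It was 0 in a fit of the 8 arrays alone and 11 with the values that the authors normalized.

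At 36 h, lens RNA also differed between the compounds: 6 of 13 lens fibre genes were called lower in MBZ eyes, and the summed relative signal of the list was 494 to 635 in MBZ eyes and 769 to 1060 in BBC eyes. The log2 fold change of *cryaa*, the alpha crystallin that is itself a small heat shock protein, was -0.55 and was not called, a value that rests on 2 MBZ arrays because uneven spots were left out of the other 2, and the median of the 8 small heat shock proteins was -0.23. Of 9 macrophage and microglia genes, 3 were called higher, with a summed signal of 23.9 to 45.9 in MBZ eyes and 18.8 to 27.7 in BBC eyes. Of 12 genes of retinal progenitors and neurons, 3 were called lower, with 142 to 183 in MBZ eyes and 171 to 202 in BBC eyes. None of 17 photoreceptor genes, 7 red blood cell genes and 20 muscle genes was called at 36 h. The median log2 fold changes of these lists were -0.11, -0.06, and -0.25, and 3, 1, and 2 of their genes were higher in MBZ eyes. Of all named genes, 6.33% were called at 36 h. The part of these cells in the chaperone values was not tested.

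**Figure D4:**
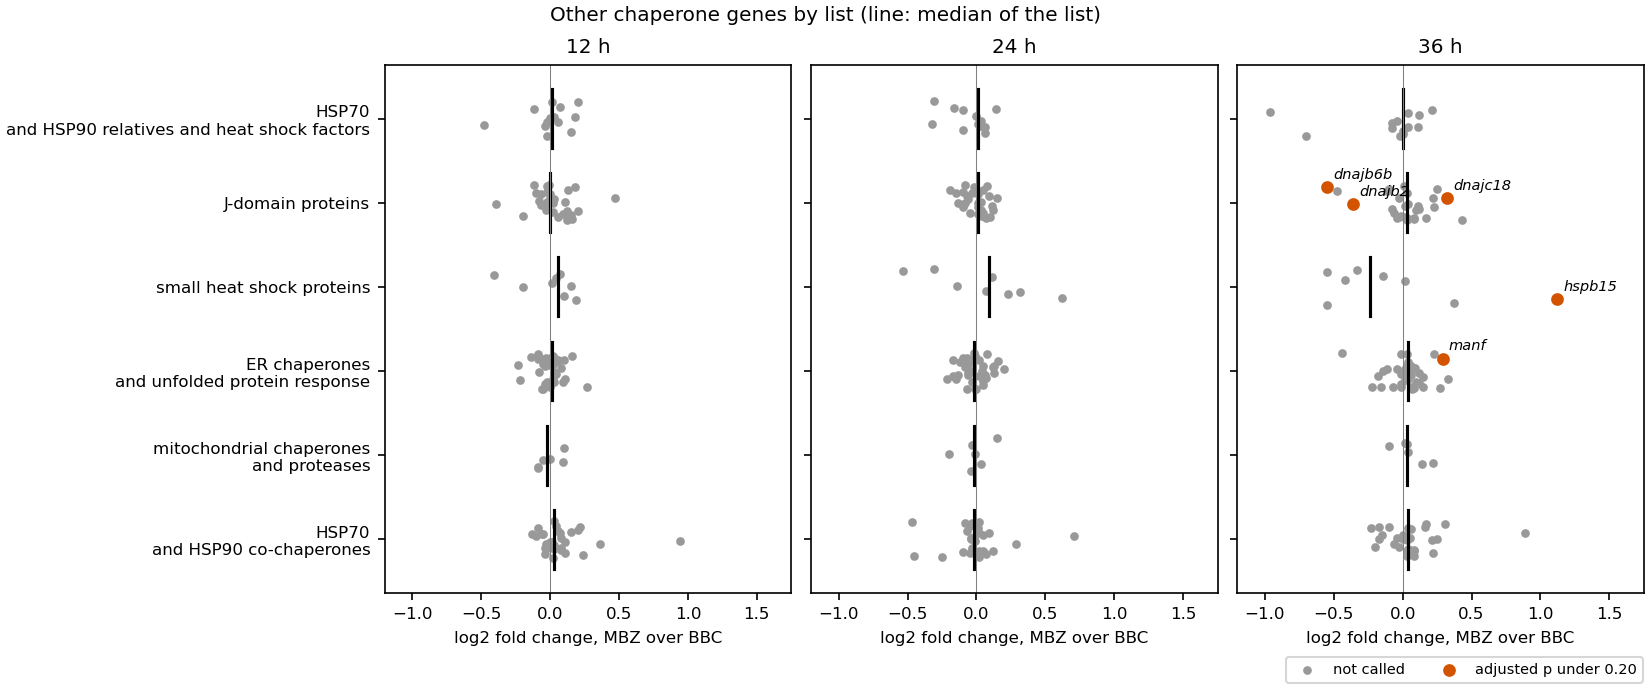
Log2 fold change of MBZ over BBC (x axis) at 12, 24, and 36 h for 122 other chaperone genes in 6 lists (y axis), each gene by its brightest probe. Grey points were not called, orange points had an adjusted p under 0.20 and carry their names, and vertical lines are list medians; the 5 called genes lie in the panel of 36 h, and *hspb15* lies farthest to the right.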

How the data were processed

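RNA of pooled zebrafish eyes was measured on 24 single-colour arrays, grouped by the compound and exposure time in the labels. The authors analysed the scanned arrays with Agilent Feature Extraction (version 10.1.1.1 in the file headers, 8.0 in the submitters' processing notes). The deposited intensities are background-corrected but not normalized between arrays. Normalized log2 values, likewise deposited by the authors, served as an alternative. Here the log2 ratio of the intensity to the 75th percentile of its own array was used, with spots of a probe averaged, uneven spots left out and nothing added before the logarithm. A probe was tested if at least 1 condition had it positive and clearly over background on each of its 4 arrays. Names came from a RefSeq table of GRCz12tu through the accession of each probe. The package limma 3.58.1, run in R 4.3.3, fitted 6 conditions with 18 residual degrees of freedom, tested on simulated data first. The call threshold, an adjusted p under 0.20, follows the study's false discovery rate, and its rank product was not run here. All 10 genes are named, together with the called genes of the chaperone lists. Other genes named (*cryaa*, *hsp90aa1.2*, *hsc70*, *hspa1b*) were singled out after their values were seen. The heat shock factors are named only to say which were tested. The genes and lists were chosen with earlier results of these data known. MBZ and BBC pools of an exposure time with the same replicate number shared a slide; the correlation of their deviations was 0.16 to 0.44 at 24 h, over 0.1 in every pair, but 0.03 to 0.13 at 12 h and -0.02 to 0.37 at 36 h. Permutations of a correlation numbered 100000. The number of arrays limits the precision.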

Additional observations from a re-analysis of the deposited data

Results flagged for a closer look

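Within the conditions, 6 of 129 sets of 4 pools had a pool that stood apart from the other 3 by Dixon's criterion, and chance gives about 1 in 20. For *hsp90aa1.1*, MBZ replicate 1 stood apart at 24 h in A_15_P102590, at -0.11 against -0.51 to -0.46 in the others, and at 12 h in A_15_P131436, at -2.05 against -2.47 to -2.43. For *hspa5* A_15_P130346, MBZ replicate 3 at 12 h read 5.95 against 5.87 to 5.88, and MBZ replicate 4 at 36 h read 5.74 against 5.94 to 5.95. For *hspa9* A_15_P111664, BBC replicate 1 at 36 h read 3.84, and the others 3.96. For *hspd1* A_15_P118622, MBZ replicate 2 at 36 h read -2.26 against -2.46 to -2.45.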

How the results depend on the processing

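Between MBZ and BBC, the number of heat shock protein genes called was 0 at each exposure time, and for each difference of effects, under every alternative that kept all arrays, among them the replicate block, where it was 0 too. When arrays were left out in turn, it was 0 to 1 at 12 h, where *hspb1* was called without BBC replicate 2, and 0 at 24 h and 36 h. Of 1047 alternative values of the 10 genes in these comparisons, 51 changed sign without a call on either side. The number of all probes called at 36 h was 1770, and 15 to 3710 under the alternatives; at 12 h it was 101 and 4 to 159, and at 24 h 101 and 0 to 188. When an array was left out these counts were 636 to 3634, 69 to 178, and 76 to 175. With normexp correction before the 75th percentile, the median of all probes was 0.11 at 12 h and -0.15 at 24 h. In BBC eyes at 24 h against 12 h, 7 genes were called, and 6 to 7 with an array left out, 5 with quantile normalization, the authors' values, or normexp with quantile normalization, 8 with the mean over probes, but 3 with normexp and the 75th percentile. The turned values that follow are those called on at least 1 side; of the values called on neither, normexp and the 75th percentile brought *dnajb1b* to -0.36 at this step and *hsp70l* to 0.34 at the next. At 24 h, normexp and the 75th percentile turned *hsp90ab1* to -0.29, *hspa5* to -0.37, *hspa8* to -0.16, *hspb1* to -0.08, and *hspd1* to -0.75, the mean over probes turned *hsp90aa1.1* to 0.31 and *hspd1* to -0.59, and normexp with quantile normalization, chosen after seeing the data, brought *hsp90ab1* to 0.00. At 36 h against 24 h, 8 genes were called (8 to 9 with an array left out), but 4 with normexp and the 75th percentile, 5 with normexp and quantile normalization, and 5 with the mean over probes. There, normexp and the 75th percentile turned *dnajb1b* to 0.19, *hsp90ab1* to 0.25, *hsp90b1* to 0.36, *hspa5* to 0.17, and *hspd1* to 0.61. The mean over probes turned *hsp90aa1.1* to -0.31, *hspa9* to -0.10, and *hspd1* to 0.07. The authors' normalized values turned *hsp90ab1* to 0.01 and *hspa5* to 0.11, and normexp with quantile normalization turned *hsp90ab1* to 0.03. The cause was not tested. Blocks of slide or of replicate within an exposure time, and fits of 8 arrays, could not be made between exposure times.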

Other observations

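*hsc70* and *hspa1b*, relatives of *hspa8* and *hsp70l* on the array, were singled out after their values were seen, and no test was added for them. *hsc70* read -1.34, -0.61, -0.55, and 0.00 in MBZ eyes at 36 h, against 0.38, -0.10, 0.47, and 0.61 in BBC eyes, with a log2 fold change of -0.96 that was not called (limma adjusted p = 0.343). The value of *hspa1b* for the same comparison was -0.70, which was not called either (limma adjusted p = 0.472). *hsc70* was also set beside the lens gene *cryaa*, and whether the 2 genes vary together was not tested. In BBC eyes at 12 h, *hsc70* read 0.25, -1.01, -1.60, and -1.80 and *cryaa* 3.06, 2.51, 2.11, and 2.01 in the same pools, in the same order. In MBZ eyes at 24 h, *hsc70* read -1.04, -0.44, -0.76, and -1.52 and *cryaa* 2.36, 3.38, 3.13, and 2.78. There the lowest pool was not the same for both genes. In each of the 5 conditions with a value of both genes on all 4 arrays, the pool with the highest *cryaa* was also the pool with the highest *hsc70*.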
